A study of Mus musculus with 4 samples.

Results

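Spock2, Bsg, Pltp, Itm2a, Car4 and Ctla2a are 6 genes of brain endothelium that were chosen by name, as abundant transcripts of the control libraries, out of 24873 genes in the table. The libraries came from sorted cerebral cells of Cdh5cre;Mgpflox/flox mice, which carry a Cre driven by the promoter of VE-cadherin, an endothelial gene, and Mgp alleles in which loxP sites surround the sequence to be deleted. The control group received no tamoxifen, and the tamoxifen group was injected with 75 mg/kg on each of 5 days, beginning at 10 weeks of age, to activate the Cre, so both groups carried the same alleles. Cells were taken on day 9, with 2 libraries in each group. A figure legend of the study describes independent groups of cells pooled from 3 mice, whereas its methods speak of 3 mice from each group. The labels call the cells Brain tdTomato+, whereas the study's methods describe a CD31+CD45- sort. If the pools were independent, as the legend states, p-values measure the spread between pools and not between single mice.

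Cerebral endothelial cells (ECs) form the blood-brain barrier and are known for strong expression of nutrient transporters, matrix proteins and membrane proteins that other vascular beds express less. Spock2 encodes testican-2, a secreted proteoglycan of the SPARC family. Bsg encodes basigin (CD147), an immunoglobulin-superfamily protein that escorts monocarboxylate transporters to the cell surface. Pltp encodes phospholipid transfer protein, which moves phospholipids between lipoproteins. Itm2a encodes a type II membrane protein with a BRICHOS domain. Car4 encodes carbonic anhydrase IV, a membrane-anchored enzyme that interconverts carbon dioxide and bicarbonate at the capillary surface. Ctla2a encodes a small protein that resembles the propeptide of cathepsins and inhibits cysteine proteases.

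Levels are given as normalized counts, which are reads divided by 1 factor per library. The label "most abundant" held to a different extent for each gene. By normalized count, Spock2 and Bsg ranked 1 and 2 of all genes on the control mean, Pltp ranked 21, Itm2a ranked 44 and Car4 ranked 64. Ctla2a ranked 1160, so the label did not describe it. Because the genes were chosen for their control levels, their levels and their differences between groups are given as a description, without a test.

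The 250 bases before the annotated start of each gene are shown because they lie directly upstream of where these transcripts begin. They were taken from the RefSeq promoter table of build GRCm38.p6, in which 5 of the 6 genes matched, all but Bsg, and for Ctla2a the first of its windows is shown. Capitals mark matches, on either strand, to the letters TATAAA (the TATA box), GGGCGG (the GC box), AGGAAG (an ETS-type core), ATTGTT (a SOX-type core), ATCAAAG (a TCF/LEF-type site) and CCACCC (a KLF-type site). Each sequence runs 5′ to 3′ on the strand of its gene.
Spock2 (chr10:60106007-60106256, plus strand): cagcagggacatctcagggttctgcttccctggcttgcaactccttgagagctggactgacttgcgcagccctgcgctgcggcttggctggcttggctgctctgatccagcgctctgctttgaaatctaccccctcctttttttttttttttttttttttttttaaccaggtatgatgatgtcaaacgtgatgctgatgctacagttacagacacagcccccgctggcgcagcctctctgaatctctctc
Itm2a (chrX:107403361-107403610, minus strand): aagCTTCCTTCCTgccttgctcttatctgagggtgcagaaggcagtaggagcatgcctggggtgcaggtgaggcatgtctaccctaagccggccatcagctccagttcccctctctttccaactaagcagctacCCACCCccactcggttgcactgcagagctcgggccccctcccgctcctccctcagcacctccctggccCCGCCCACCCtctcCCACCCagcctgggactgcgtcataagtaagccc
Pltp (chr2:164857709-164857958, minus strand): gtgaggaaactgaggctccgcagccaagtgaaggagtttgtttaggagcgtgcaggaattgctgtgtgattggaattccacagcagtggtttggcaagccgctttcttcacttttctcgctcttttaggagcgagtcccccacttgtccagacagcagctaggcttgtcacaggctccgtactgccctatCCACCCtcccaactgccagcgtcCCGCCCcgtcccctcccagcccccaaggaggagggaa
Ctla2a (chr13:60936626-60936875, minus strand): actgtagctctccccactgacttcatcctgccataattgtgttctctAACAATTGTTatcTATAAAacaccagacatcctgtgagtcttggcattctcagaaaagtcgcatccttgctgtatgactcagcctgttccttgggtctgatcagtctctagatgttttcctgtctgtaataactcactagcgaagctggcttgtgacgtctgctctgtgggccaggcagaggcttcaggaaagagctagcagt
Car4 (chr11:84957504-84957753, plus strand): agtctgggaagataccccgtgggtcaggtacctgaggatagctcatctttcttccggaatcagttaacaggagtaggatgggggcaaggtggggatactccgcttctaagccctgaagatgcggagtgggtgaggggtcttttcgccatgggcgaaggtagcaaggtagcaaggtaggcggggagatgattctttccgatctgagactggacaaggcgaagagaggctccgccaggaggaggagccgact

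The sequences shown had little in common in these letters. No match was found in the Spock2 and Car4 windows. The Itm2a window held 1 GGGCGG match at positions -48 to -43 from the start, which overlapped 1 of its 3 CCACCC matches, and 2 overlapping AGGAAG matches at its far end. The Pltp window held GGGCGG at -37 to -32 and CCACCC at -60 to -55. The Ctla2a window shown held TATAAA at -190 to -185 and 2 overlapping ATTGTT matches beside it. Its other window, for another annotated start, held TATAAA at -249 to -244 and AGGAAG, also matched in Itm2a, at -54 to -49. The matches of Ctla2a thus depend on the start used. Among 32851 RefSeq promoter windows of the same length, GGGCGG was present in 32.7%, AGGAAG in 29.5%, CCACCC in 28.1%, TATAAA in 12.4%, ATTGTT in 9.42% and ATCAAAG in 3.21%. The GC content of the windows was 62.8% for Itm2a, 57.6% for Pltp, 56.4% for Car4, 51.2% for Spock2 and 46.8% for Ctla2a, against a median of 52.4% over all promoters.

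The libraries held 37475154 and 41025014 reads on genes in the control group and 35387438 and 49799321 in the tamoxifen group. Mgp, the gene that tamoxifen was meant to delete, was at 1094 and 1352 normalized counts in the controls and at 945 and 909 in the tamoxifen libraries (log2 difference -0.39, SE 0.18, adjusted p = 0.0986 by limma with Benjamini-Hochberg adjustment), and its direction turned when the libraries were scaled to equal totals (0.079), while quantile normalization gave a larger difference (-0.65, adjusted p = 0.0128). Normalized counts over a whole gene do not show whether its deleted part was still transcribed. Pecam1, which encodes CD31, fell from 83681 and 88796 to 15987 and 8973 normalized counts (adjusted p = 0.000181). Of all 20485 genes tested, 44.7% were called at an adjusted p under 0.05 with a log2 difference beyond 1 in either direction, with 16.0% called lower and 28.6% called higher in the tamoxifen group.

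For each of the 6 genes both tamoxifen values lay below both control values, with tamoxifen means between 11.1% and 19.5% of the control means. Of all tested genes, 39.2% had both tamoxifen libraries below both control libraries. Nothing is read from this comparison, since the control levels chose the genes. The median log2 difference was -3.0 over the 6 genes and 0.05 over all tested genes.

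Spock2 was at 714669 and 723627 normalized counts in the controls and at 124515 and 55830 in the tamoxifen libraries. The control values lay close together, the tamoxifen values stood well apart from each other, and the groups did not overlap. The means were 719148 ± 6335 and 90172 ± 48568 (SD, n = 2 each), a 7.98-fold lower level, and Spock2 went from rank 1 to rank 12. The gene lies on chromosome 10, from 59942041 to 59971357 on the plus strand (GRCm39, GENCODE M39).

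Bsg was at 657110 and 725288 normalized counts in the controls and at 147564 and 68520 in the tamoxifen libraries. It was thus about as abundant as Spock2 by reads in the control libraries, each ranking first in 1 of them, and was the higher of the pair in both tamoxifen libraries. The means were 691199 ± 48209 and 108042 ± 55893 (SD, n = 2 each), 6.40-fold lower, and its rank was 9 in the tamoxifen group. Bsg lies on chromosome 10, from 79540143 to 79547821 on the plus strand.

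Pltp showed the largest difference of the 6 genes. Its control libraries had 140254 and 160459 normalized counts and its tamoxifen libraries 23465 and 9975. The tamoxifen mean was 11.1% of the control mean, 16720 ± 9539 against 150357 ± 14288 (SD, n = 2 each), 8.99-fold lower, and the rank went from 21 to 231. Pltp lies on chromosome 2, from 164677702 to 164701743 on the minus strand. Exons of Ctsa on the opposite strand cover 21.2% of its exon bases, and since the strand setting of the counting is not given in the sources used here, reads in that stretch could belong to either gene.

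Itm2a was at 100034 and 90514 normalized counts in the controls and at 17019 and 7102 in the tamoxifen libraries. Control library 1 was the higher of its group, the reverse of the order seen for the other 5 genes. The means were 95274 ± 6732 and 12060 ± 7012 (SD, n = 2 each), 7.90-fold lower, with the rank going from 44 to 388. Itm2a lies on chromosome X, from 106418945 to 106447419 on the minus strand.

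Car4 was at 70680 and 75173 normalized counts in the controls and at 14221 and 6745 in the tamoxifen libraries. Its means were 72926 ± 3178 and 10483 ± 5286 (SD, n = 2 each), 6.96-fold lower, and its rank went from 64 to 496. Car4 lies on chromosome 11, from 84848020 to 84856879 on the plus strand.

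Ctla2a had the lowest level of the 6 genes and, by normalized count, the smallest difference. It was at 8657 and 8789 normalized counts in the controls and at 2269 and 1134 in the tamoxifen libraries. The means were 8723 ± 93.3 and 1702 ± 803 (SD, n = 2 each), 5.13-fold lower, and its rank went from 1160 to 5646. Under quantile normalization its log2 difference was not the smallest. It was -2.25, against -1.77 for Bsg, -2.04 for Car4, -2.07 for Spock2, -2.16 for Itm2a and -2.34 for Pltp. Ctla2a lies on chromosome 13, from 61081967 to 61084449 on the minus strand. The predicted genes Gm49391 and Gm49393 on the same strand share 16.2% and 2.08% of its exon bases. How many of its reads fall there was not determined, so its count is uncertain.

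Together the 6 genes took 3.30% and 3.47% of all reads on genes in the control libraries (95% Wilson intervals 3.29 to 3.30 and 3.47 to 3.48). In the tamoxifen libraries they took 0.858% and 0.417% (intervals 0.855 to 0.861 and 0.415 to 0.419). The intervals cover counting error only. Spock2 alone made up 1.39% and 1.41% of control reads and 0.325% and 0.156% of tamoxifen reads.

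Levels of different genes were compared per kilobase of merged exons. On this scale the control order was Bsg at 248901 ± 17360 normalized counts per kilobase, Spock2 at 122512 ± 1079, Pltp at 25497 ± 2423, Car4 at 21305 ± 928, Itm2a at 16058 ± 1135 and Ctla2a at 4114 ± 44.0 (SD, n = 2 each). Bsg was thus above Spock2 once length was taken into account. No 2 neighbours in this order overlapped between the control libraries, although Pltp and Car4 came close, with 23784 and 27210 against 20648 and 21961. Among all genes with a length, these per-kilobase levels ranked 1, 3, 20, 31, 51 and 257. With the longest annotated transcript as the length, the order of the 6 genes was the same and Bsg reached 382089.

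In the tamoxifen libraries Car4 and Pltp changed places. Car4 was at 4154 and 1971 normalized counts per kilobase and Pltp at 3979 and 1691, so Car4 was above Pltp within each library, but their ranges over the 2 libraries overlapped. Itm2a, at 2869 and 1197, overlapped with Pltp. Bsg at 53138 and 24674, Spock2 at 21212 and 9511, and Ctla2a at 1071 and 535 overlapped with no neighbour.

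**Figure D1:**
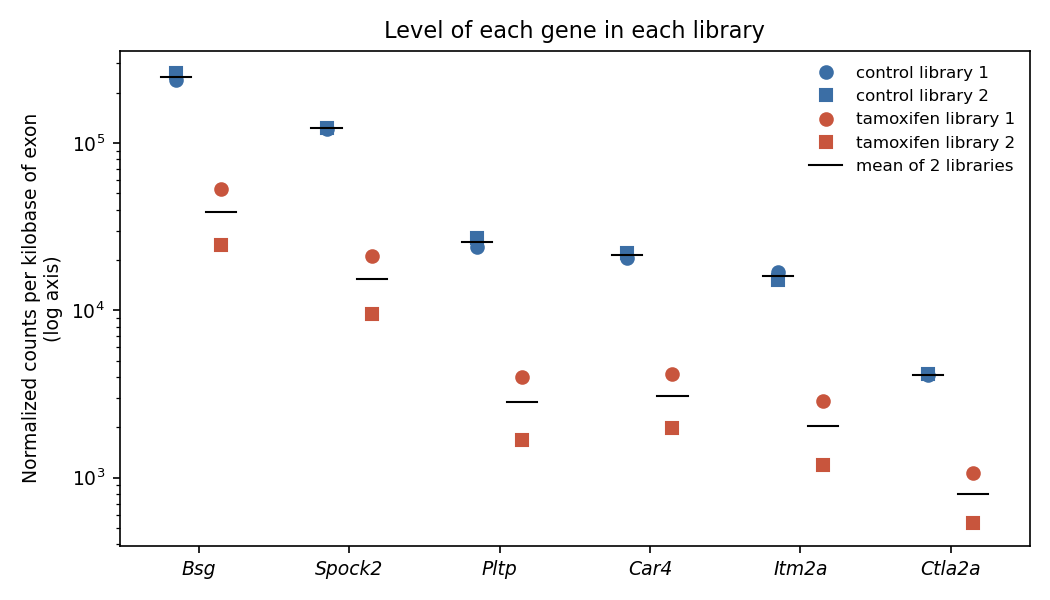
Normalized counts per kilobase of merged exons (log axis) of the 6 genes in each of the 4 libraries, with the mean of each group as a horizontal line. In all 6 genes both tamoxifen libraries lie below both control libraries, and tamoxifen library 2 is the lowest.

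**Figure D2:**
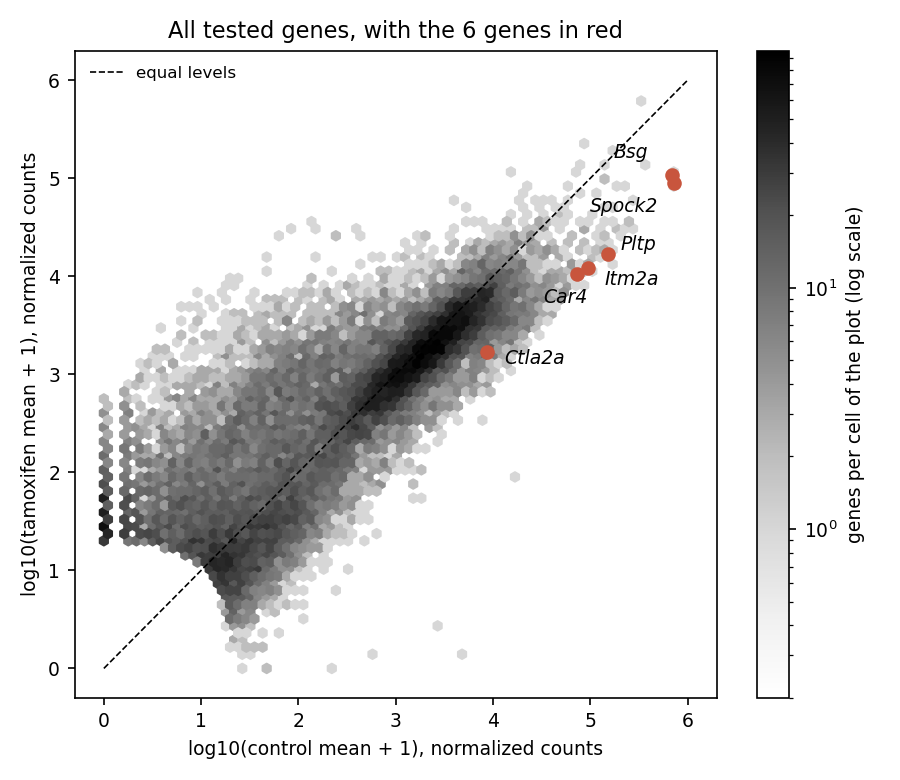
Mean level in the tamoxifen group against mean level in the control group, both as log10(normalized counts + 1), for all tested genes (grey, darker where more genes fall) with the 6 genes in red and equal levels as a dashed line. The 6 genes lie below the line, 5 of them at its right end and Ctla2a well to the left of the others.

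The 2 tamoxifen libraries differed from each other for all 6 genes by a similar factor. The level in tamoxifen library 1 was 2.23 times that in library 2 for Spock2, 2.15 for Bsg, 2.40 for Itm2a, 2.35 for Pltp, 2.0 for Ctla2a and 2.11 for Car4. Over all tested genes the median of this ratio was 1.06, and 3.55% had a ratio of at least 2, a limit chosen after the values had been seen. In the control libraries the same ratio of the 6 genes lay between 0.874 and 1.10. Without tamoxifen library 2 the median log2 difference of the 6 genes was -2.42, and without tamoxifen library 1 it was -3.56.

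A panel of 10 endothelial genes (Pecam1, Cdh5, Tie1, Esam, Egfl7, Ramp2, Robo4, Erg, Eng and Cldn5) was also lower in the tamoxifen libraries. Its mean log2 level was 15.77 and 15.90 in the control libraries, against 13.42 and 12.39 in the tamoxifen libraries, a difference of -2.93, with single genes between -3.21 and -2.82. The panel was 2.03 times as high in tamoxifen library 1 as in library 2. In bulk libraries, fewer cells of a type and less RNA per cell cannot be told apart.

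Set against this panel within each library, the 6 genes differed between groups by at most 0.49 log2 units. Car4 was 0.34 and 0.30 log2 units above the panel in the control libraries, against 0.38 and 0.33 above it in the tamoxifen libraries, a difference of 0.04 with overlapping groups. Spock2 was 3.67 and 3.56 above the panel in the control libraries, against 3.51 and 3.38 in the tamoxifen libraries (difference -0.17). Bsg was 3.55 and 3.57 above it in the control libraries, against 3.76 and 3.67 in the tamoxifen libraries (difference 0.15). For both genes the groups did not overlap, but how often this happens among all genes on this scale was not counted. The panel genes themselves differed between groups by -3.21 to -2.82, around the panel's -2.93. Spock2, at -3.11, lay within this range, and Bsg, at -2.78, lay outside it. Nothing particular to Spock2 or Bsg is read from these shifts.

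Itm2a, at 0.84 and 0.56 above the panel in the control libraries, against 0.64 and 0.40 in the tamoxifen libraries, overlapped between groups (difference -0.18). Pltp was 1.32 and 1.39 above the panel in the control libraries, against 1.10 and 0.89 in the tamoxifen libraries, the lowest difference at -0.36. Ctla2a went the other way, from -2.69 and -2.80 to -2.27 and -2.24. Relative to the panel it was thus 0.49 log2 units higher in the tamoxifen group. This shift was not computed under quantile normalization. Neither Pltp nor Ctla2a overlapped between groups, and their differences (-3.29 and -2.44) lay outside the range of the panel genes. How often this happens among all genes on this scale was not counted. With 2 libraries against 2, an exact permutation test of a single value cannot give a two-sided p below 0.333.

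**Figure D3:**
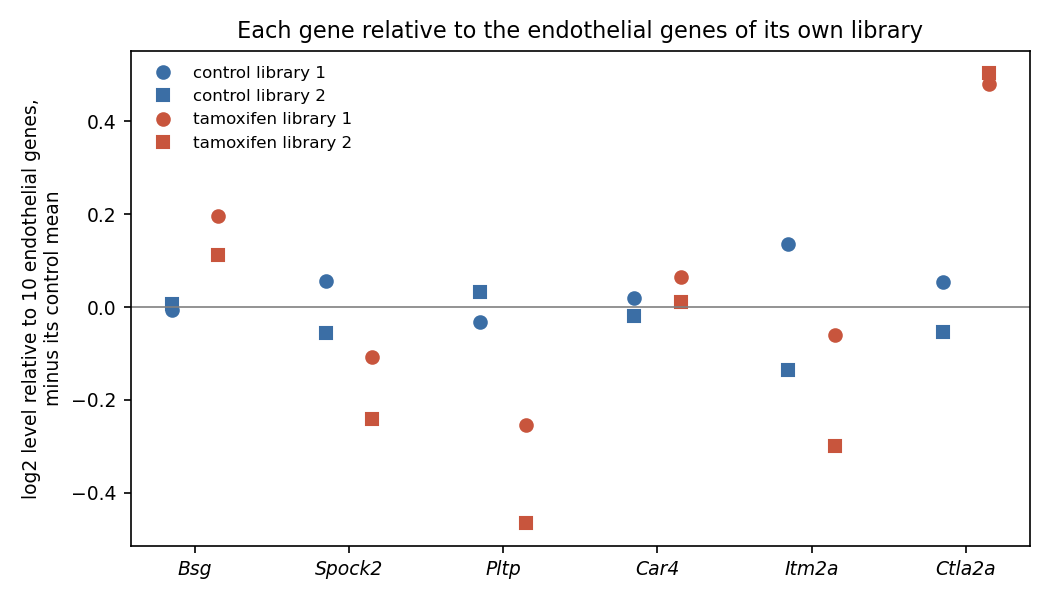
Level of each of the 6 genes relative to the mean of 10 endothelial genes in the same library (log2), minus its mean over the control libraries, with 1 point per library. Pltp lies lowest in the tamoxifen libraries (difference -0.36), Ctla2a lies highest (0.49) and Car4 lies near 0 (0.04).

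Many markers of other cell types rose. The summed normalized counts of 5 neutrophil genes were 219 and 183 with no tamoxifen and 91181 and 68121 after it, with 5 of 5 called higher, and those of 6 astrocyte genes were 27117 and 31486 against 134790 and 285980, with 6 of 6 called higher. All tested markers were also called higher for fibroblasts (4 of 4), erythroid cells (4 of 4) and lymphocytes (5 of 5, with Cd3e at or under 3 reads in both control libraries). The counts were 4 of 5 for oligodendrocytes, 3 of 4 for their precursors, 3 of 5 for neurons, 4 of 5 for ependymal and choroid plexus cells, 2 of 6 for pericytes, 1 of 4 for smooth muscle and 2 of 5 for microglia. The endothelial sum was 662601 and 724636 in the control libraries against 129314 and 64154, with 10 of 10 called lower. The part of other cells in the levels of the 6 genes was not tested.

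Low values in the tamoxifen group were common among abundant control genes. Of the 50 genes with the highest control means, 42 were called lower and 1 higher, with a median log2 difference of -2.60, and of the highest 100, 83 were called lower and 1 higher, with a median of -2.40. Over all tested genes, 16.0% were called lower and 28.6% higher. Spock2, Bsg, Pltp and Itm2a are among the 50, and Car4 is among the 100. The order of control means rests on the same levels that chose the 6 genes, and a high control value favours a lower call. Nothing is therefore read from these counts. The neighbours of the 6 genes in this order included lower and higher levels in the tamoxifen group. Kdr, the main VEGF receptor, stood just above Pltp and had a log2 difference of -2.75. Sparcl1, a SPARC-family gene, stood just below Pltp with -0.68 (SE 0.38) and was not called. Vwa1 and Ly6c1, on either side of Car4, had -2.80 and -3.36. Cacna1e, a calcium channel gene just above Ctla2a, had -2.40.

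Other neighbours were higher in the tamoxifen group. Eef1a1, a translation elongation factor gene just below Itm2a, was at 86907 and 99781 normalized counts in the controls and at 232822 and 190619 in the tamoxifen libraries (log2 difference 1.18). Eno1, a glycolysis gene just below Ctla2a, had 0.64. Rn18s-rs5, a ribosomal RNA gene just below Bsg, had 0.76 (SE 0.71). It was at 309955 and 388589 normalized counts in the controls and at 438444 and 786743 in the tamoxifen libraries.

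The genes whose course over the 4 libraries was nearest to each of the 6 were sought among 7228 genes with a control mean of at least 1000 normalized counts, by the root mean square distance between centred log2 values. Spock2 was nearest to Prkch, a protein kinase C gene (0.02 log2 units), and Ccm2l (0.03). Bsg was nearest to Gpr4 and Map3k6 (0.02 each). Itm2a was nearest to Ccm2l (0.04) and to Ptprb, which encodes the endothelial phosphatase VE-PTP (0.05). Pltp was nearest to Gata2, a transcription factor gene (0.04), and Ly6a (0.05). Ctla2a was nearest to Slc35f2 (0.03) and Tamalin (0.04). Car4 was nearest to Cxcl12, a chemokine gene (0.02), and Shroom1 (0.03). Among the 6 genes themselves the closest pair was Bsg and Car4, at 0.06, and the farthest was Pltp and Ctla2a, at 0.44. The distances rest on 4 libraries, and all these genes share the difference between the groups.

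Relatives and partners of the 6 genes moved in both directions. In 6 lists with 76 genes, 75 were in the table and 74 passed the filter on low values. Of these, 35 rose, 16 fell and 23 were not called, against 28.6% of all tested genes called higher and 16.0% called lower, with a median log2 difference of 0.87 beside 0.05 over all tested genes. Scaling to equal totals raised the median of all genes by 0.49 and gave 41 higher and 10 lower calls among the relatives, and quantile normalization lowered it by 0.28 and gave 34 and 14. In what follows, p-values are limma's, with Benjamini-Hochberg adjustment over all tested genes.

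The relatives of Spock2 included both directions. Of 10 genes of the SPARC family and of the metalloproteinases that testicans are known to affect, 6 rose, 3 fell and 1 was not called, with a median log2 difference of 3.01. Spock1, which encodes testican-1, rose from 19.2 and 25.0 to 280 and 180 normalized counts (log2 difference 3.30, SE 0.47, adjusted p = 0.000664). Spock3, which encodes testican-3, had 2 reads in each control library and 42.3 and 69.0 normalized counts in the tamoxifen libraries (adjusted p = 0.00097). Per kilobase, their control means were 2.64 and 0.254 normalized counts, against 122512 for Spock2.

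Sparc, which encodes osteonectin and was the most abundant of this list, fell from 189868 and 234568 to 93476 and 62789 normalized counts (log2 difference -1.46, SE 0.41, adjusted p = 0.0168). Its call was lost without control library 1 (adjusted p = 0.116), without control library 2 (0.142) and without tamoxifen library 2 (0.0874), and also under both other scalings, at -0.99 with equal totals and -0.31 with quantile normalization. Smoc2, another secreted calcium-binding family member, fell the most, from 1070 and 1279 to 323 and 176 (log2 difference -2.29, adjusted p = 0.000506). Mmp2, a gelatinase gene, rose the most, from 35.6 and 65.1 to 2145 and 1604 (log2 difference 5.24, adjusted p = 2.87e-05).

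Among 11 relatives and partners of basigin, 5 rose, 3 fell and 3 were not called (median log2 difference 0.64). The 3 that fell were the transporter genes Slc7a5, Slc3a2 and Slc16a1, all known from the blood-brain barrier. Slc7a5, which encodes the large amino acid transporter LAT1, fell from 224676 and 239569 to 49456 and 25403 normalized counts (log2 difference -2.71, SE 0.41, adjusted p = 0.000883). Slc3a2, which encodes its heavy chain CD98, fell from 52511 and 64209 to 19482 and 14538 (-1.79, adjusted p = 0.000654).

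Slc16a1, which encodes the monocarboxylate transporter MCT1 that basigin escorts, was at 111235 and 79896 in the control libraries and at 56408 and 28416 in the tamoxifen libraries. It met the limits for a lower call (log2 difference -1.24, SE 0.39, adjusted p = 0.0282) but lost it without control library 1 (adjusted p = 0.161) and without tamoxifen library 2 (0.178), with equal totals (-0.77, adjusted p = 0.105) and under quantile normalization, where it stood at 0.016. Slc16a3, which encodes MCT4, the lactate exporter, went from 43.8 and 46.3 to 2125 and 1825 normalized counts (log2 difference 5.42, adjusted p = 8.12e-06).

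Embigin (Emb) and neuroplastin (Nptn) are the family members of basigin. Emb rose from 57.5 and 118 to 1660 and 1513 normalized counts (log2 difference 4.25, adjusted p = 6.65e-05). Nptn was at 5364 and 4918 in the control libraries and at 4845 and 5042 in the tamoxifen libraries, with overlapping groups (log2 difference -0.06, adjusted p = 0.768) and a sign that turned under both other scalings. Ppia, which encodes cyclophilin A, an extracellular ligand of basigin, was higher in both tamoxifen libraries at 15063 and 13837 against 8210 and 10523, short of the fold limit (0.64, adjusted p = 0.0225), which it passed with equal totals (1.11) and quantile normalization (1.23). Cd44, a hyaluronan receptor gene, rose the most, from 58.9 and 51.3 to 6425 and 4571 (log2 difference 6.60, adjusted p = 3.83e-06).

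For Itm2a, 5 relatives were tested, of which 1 rose, 2 fell and 2 were not called (median log2 difference -0.39), and Tnmd was below the filter. Itm2b, the broadly expressed paralog, fell from 37917 and 43050 to 19600 and 19206 normalized counts (log2 difference -1.06, SE 0.21, adjusted p = 0.00386), close to the fold limit. It was no longer called with equal totals (-0.59), with quantile normalization (-0.27) or without control library 2 (-0.97). Itm2c, at 10483 and 11988 against 8907 and 10917, overlapped between groups (-0.19, adjusted p = 0.415), and its sign turned under both other scalings. App, the amyloid precursor gene whose product ITM2 proteins bind, fell from 131030 and 140460 to 31421 and 20896 (-2.40, SE 0.31, adjusted p = 0.00043).

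Cnmd, a BRICHOS gene known from cartilage, had 0 and 3 reads in the control libraries, against 29.3 and 83.4 normalized counts in the tamoxifen libraries (adjusted p = 0.00359). It was not called without either tamoxifen library (adjusted p = 0.0635 without library 1 and 0.114 without library 2).

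Of 13 genes of lipid transfer and lipoprotein remodelling tested beside Pltp, 5 rose, 3 fell and 5 were not called (median log2 difference 0.50), and Bpi was not in the table. Scarb1, which encodes the HDL receptor SR-BI, fell the most, from 19253 and 19779 to 6121 and 3641 normalized counts (log2 difference -2.05, SE 0.25, adjusted p = 0.000314). Abca1, a cholesterol exporter gene, was at 18453 and 14714 against 10140 and 11275, without a call (-0.62, adjusted p = 0.0252), and at 0.012 under quantile normalization. Apoe, the most abundant of the list, was at 21983 and 33175 in the control libraries and at 41746 and 63667 in the tamoxifen libraries, and missed the fold limit (0.93, adjusted p = 0.0354), which it passed under both other scalings and without control library 2 (1.23). Abcg4, a sterol exporter gene known from brain, rose the most, from 21.9 and 25.0 to 558 and 585 (log2 difference 4.55, adjusted p = 6.05e-05).

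Of 13 genes beside Ctla2a, namely its paralog, cathepsins and cystatins, 3 rose, 3 fell and 7 were not called (median log2 difference 0.64). Ctla2b, the paralog, fell from 273 and 144 to 32.5 and 12.2 normalized counts (log2 difference -3.24, SE 0.61, adjusted p = 0.00263), a call that was lost without tamoxifen library 2 (adjusted p = 0.081). It was far below Ctla2a per kilobase, at a control mean of 113 against 4114. Gm49391 on the same strand shares 56.4% of the exon bases of Ctla2b, and reads could also be divided between the paralogs, so its value is uncertain.

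Ctsl, which encodes cathepsin L, the protease that CTLA-2 proteins inhibit, was higher in both tamoxifen libraries, at 19941 and 18068 normalized counts against 10533 and 11308, short of the fold limit (log2 difference 0.80, adjusted p = 0.00629). It passed that limit under both other scalings (1.27 with equal totals and 1.43 with quantile normalization). Gm47123 on the opposite strand covers 26.1% of the exon bases of Ctsl, and Gm49230 on the same strand covers 5.92%. How many of its reads fall there was not determined, so the count of Ctsl is uncertain. Cst3, which encodes cystatin C, was at 20721 and 28423 against 19600 and 27724, with overlapping groups (-0.06, adjusted p = 0.863) and a sign that turned under both other scalings. Cst7, a cystatin gene of immune cells, had no read in the control libraries, against 121 and 60.4 normalized counts in the tamoxifen libraries, at least 23.1-fold higher against a floor of 3 reads per library (adjusted p = 0.000134).

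Of 15 other carbonic anhydrases tested, 9 rose, 2 fell and 4 were not called (median log2 difference 1.51), and of 7 bicarbonate transporters, 6 rose and 1 was not called (median 2.25). Car2, the widely expressed cytosolic enzyme and the most abundant of the list, rose from 4757 and 5189 to 15244 and 12576 normalized counts (log2 difference 1.48, SE 0.17, adjusted p = 0.000267). In the control libraries Car4 was far above Car2 per kilobase, with means of 21305 and 1129, and in the tamoxifen group the means were 3063 and 3158.

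Car4 is membrane-bound, as are, among others, the enzymes of Car9, Car12 and Car14, and these 3 genes did not move alike. Car15, also of this list, was at 26.0 and 26.3 normalized counts in the controls and at 18.4 and 18.7 in the tamoxifen libraries. It was not called (log2 difference -0.47, adjusted p = 0.479). Car9, with 1 and 2 reads in the control libraries, had 452 and 303 normalized counts in the tamoxifen libraries (adjusted p = 5.73e-05), and Car12 rose from 4.11 and 27.5 to 315 and 588 (log2 difference 5.16, adjusted p = 0.00102). Car14 fell, from 1245 and 1193 to 253 and 234 normalized counts (log2 difference -2.32, SE 0.20, adjusted p = 8.27e-05). Car5a, a mitochondrial enzyme gene, fell the most, from 430 and 389 to 52.0 and 46.7 (-3.03, adjusted p = 0.000221). Car1, a carbonic anhydrase gene known from red blood cells, rose the most, from 8.22 and 13.8 to 2934 and 2143 (log2 difference 7.75, adjusted p = 8.62e-06), beside 4 of 4 erythroid markers called higher, whose part was not tested. Slc4a4, a sodium bicarbonate cotransporter gene known from astrocytes, rose from 1181 and 1491 to 10717 and 21233 (log2 difference 3.51, adjusted p = 7.98e-05). This stood beside 6 of 6 astrocyte markers called higher, whose part was not tested.

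**Figure D4:**
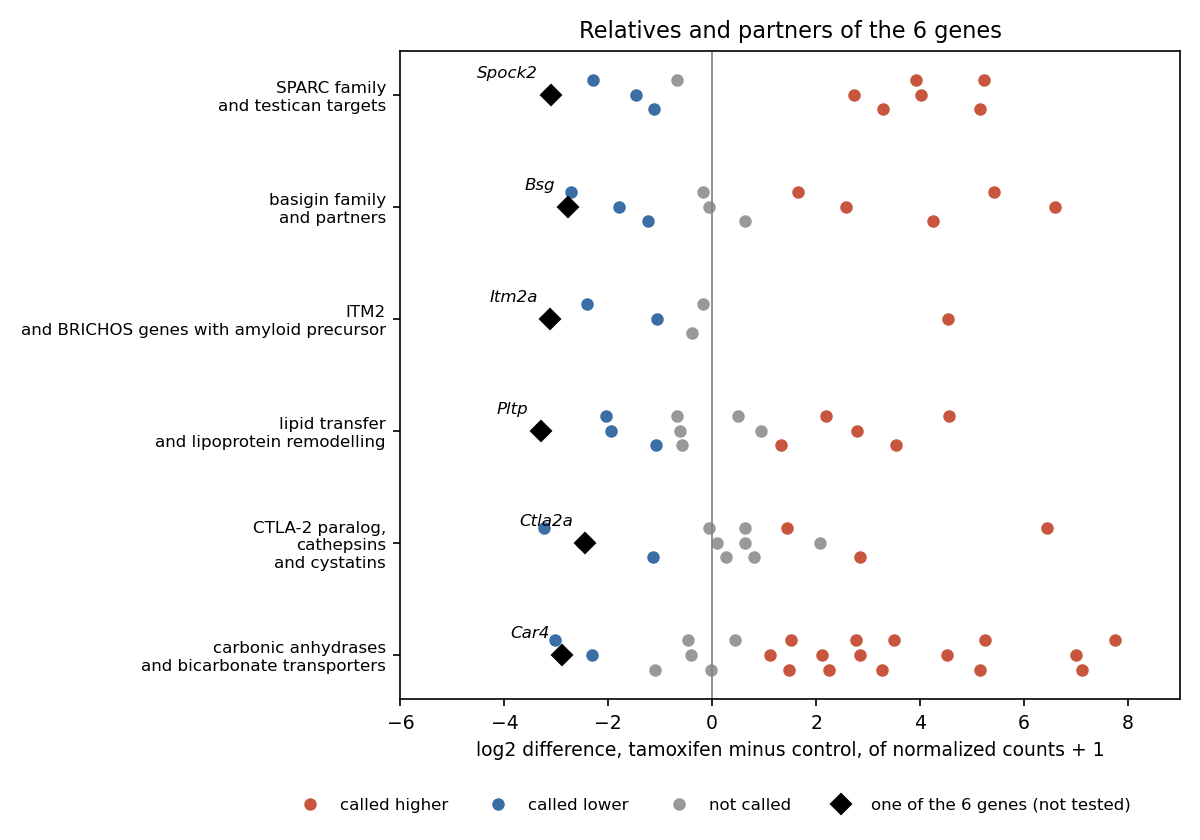
Log2 difference, tamoxifen minus control, of the relatives and partners in 6 lists, coloured by call (higher, lower, not called), with the 6 genes themselves as black diamonds. The 6 genes lie between -3.29 and -2.44, while the relatives spread to both sides of 0, with 35 called higher and 16 lower of 74 tested.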

How the data were processed

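RNA-Seq libraries of 2 control and 2 tamoxifen samples were analysed. The authors used the KAPA Stranded mRNA-Seq Kit, STAR 2.7.10a on GRCm39 and DESeq2 1.36.0, left out genes with low counts and deposited a signal per gene, called normalized count here: a read count divided by 1 factor per library. The annotation release and the strand setting are not given in the sources used here. Columns are named by a letter and a number, where C was taken to mean control and A (for the malformation that follows tamoxifen) the tamoxifen group. Whole reads were recovered from the step of each column, with 100% of values within 0.01 reads of a whole number.

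The 6 genes, all lists, the named genes and the tests were chosen with earlier results of these data known. Groups were compared with limma 3.58.1 (R 4.3.3, lmFit and trended eBayes), applied to log2(normalized count + 1) of all genes whose mean reached 10, with Benjamini-Hochberg adjustment, so a log2 difference understates the change of low genes. A called gene had an adjusted p below 0.05 and a log2 difference beyond 1 in size. The script was tested on simulated data with few changed genes and known library factors, so that test did not check the scaling of these data. Named genes were the 6, a set of closest relatives, in each list the most abundant gene and the called gene with the largest rise and fall, the 2 nearest genes of each of the 6, their neighbours by control mean, Mgp and Pecam1. Slc16a3, Slc4a4, Car9, Car12, Car15 and Cd3e were named after their values had been seen. Lengths and positions came from GENCODE M39 (24531 genes matched), and promoters from RefSeq (GRCm38.p6). Exons of genes on the opposite strand also cover exon bases of Slc3a2 (15.9%), Car14 (14.9%), Apoe (12.9%), Ppia (7.73%), Emb and Nptn. Reads there could belong to either gene. As alternatives, the pseudocount was 0.5 or 5, the filter was dropped or raised to 100, libraries were scaled to equal totals or quantiles, the trend was left out, a replicate block was added, recovered reads were tested with DESeq2 1.42.0 and edgeR 4.0.16, single libraries were left out, the adjusted p was used alone, and length was that of the longest transcript.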

Additional observations from a re-analysis of the deposited data

How the results depend on the processing

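The log2 differences of the 6 genes over the 14 alternatives run for them lay between -3.91 (Pltp) and -1.77 (Bsg). Their median was -2.12 under quantile normalization and ranged from -3.56 to -2.42 with single libraries left out. Called genes numbered 9151 in all, 5934 with a filter at a mean of 100, 12071 by adjusted p alone, 9241 by edgeR and 8739 by DESeq2, and ranged from 4979 (without tamoxifen library 2) to 10001 with a library left out, with 5811 without tamoxifen library 1. Of called genes 64.1% were higher, 80.3% with equal totals and 45.6% with quantile normalization. Relatives called higher ranged from 21 (without tamoxifen library 2) to 36 and those called lower from 12 to 16 with a library left out, and 10 were called lower with equal totals. The share called higher among called relatives was 68.6%, and 80.4% with equal totals.

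Signs turned with equal totals for Itm2c (0.29), Nptn (0.41), Cst3 (0.41) and Mgp (0.079), with quantile normalization for Itm2c (0.38), Nptn (0.32), Slc16a1 (0.016), Abca1 (0.012) and Cst3 (0.71), without control library 1 for Nptn (0.0072, from -0.12 without control library 2), without control library 2 for Cst3 (0.17) and without tamoxifen library 1 for Cst3 (0.19). The cause was not tested. The call of Slc16a1 was also lost without a filter (adjusted p = 0.0503 by limma), without the trend (0.0797) and with equal totals (0.105), and quantile normalization took Slc3a2 below the fold limit (-0.94). The calls of Sparc and Itm2b were lost with equal totals (-0.99 and -0.59) and with quantile normalization (-0.31 and -0.27). Ppia, Apoe and Ctsl were called higher under both. With the replicate number as a block, 9525 genes were called, and 36 relatives were called higher and 16 lower. The pairing check gave r = 0.03 between deviations of same-numbered libraries across 20485 genes. It gave no sign of pairing by number, but it rests on a single difference per group and cannot exclude pairing. With 2 libraries per group, spread between mice was not measured, and genes near the floor of 3 reads have little precision.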
